A study of Homo sapiens with 2 samples.

Results

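The matrix metalloproteinase cluster of human chromosome 11 holds 9 genes for secreted zinc proteases side by side, MMP7, MMP20, MMP27, MMP8, MMP10, MMP1, MMP3, MMP12 and MMP13, all read from the minus strand. These 9 genes were chosen by name and place, out of 19970 protein-coding genes that GENCODE release 44 puts on the autosomes and X. Every ATAC-seq peak in the gene bodies, between the genes and within 50 kb of the outermost genes was counted, a window of 535 kb (hg38, chr11:102470508-103005732) around a cluster of 435 kb. The No gRNA list had 25 of its 74757 peaks in the window, and the All gRNA list 20 of its 75217.

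Matrix metalloproteinases cut collagens, proteoglycans and other proteins of the extracellular matrix, and are made as inactive precursors that other proteases activate. Several genes of the cluster are textbook targets of AP-1, a transcription factor family that acts downstream of growth factor and cytokine signals. Their secretion by tumour and stromal cells is known from invading carcinomas.

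ATAC-seq reads open chromatin from the places where the transposase Tn5 inserts adapters. Both libraries came from SUM159, an established triple negative breast cancer line of the claudin-low, mesenchymal type, and both cell populations carried the lentiviral vector pLV-KRAB, which expresses dCas9-KRAB, a Cas9 that binds without cutting and is fused to a repressor domain. The No gRNA cells had this vector with no targeting guide, the control that the labels call empty vector. The All gRNA cells had 4 guides as well, directed to the promoter of ZEB1, which encodes a repressor that binds E-boxes. Each group held 1 library, so there was no test and no p-value, and each difference below is one between these libraries.

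The height of a peak is given as its summit pileup, the number of extended read ends stacked over the summit, which was solved from the deposited fold and −log10 p. The depth of the All gRNA library was 0.743 times that of the No gRNA library, and ratios of pileups were corrected by this factor. Most fragments were counted at both ends, and reads carried no molecular identifiers, so intervals cover counting error only and are too narrow. Within 2000 bp of the main ZEB1 start, the targeted site, the No gRNA list held 2 peaks (943 bp, summit pileups of 25 and 27) and the All gRNA list held 0. Promoter peaks were in both lists at 5 of 5 mesenchymal markers of the line, all with less covered length in All gRNA (median −475 bp). Lengths were taken over every annotated start, of which ZEB2 has 46. Over 19970 protein-coding genes the length was also shorter more often than longer in All gRNA, for 10420 against 4865 (median −11 bp). The 2 medians are not on a like scale. The markers had 1209 to 3525 bp covered in No gRNA, and 4629 of the 19970 genes had no peak in either list. Of 7 epithelial markers 2 had promoter peaks in both lists, 2 in No gRNA only and 3 in neither. The 2 in No gRNA only were CDH1 (200 bp, pileup 7) and CLDN4 (259 bp, pileup 12). Both were below the median pileup of 19 over all No gRNA peaks. Promoter peaks in No gRNA only were found for 2.92% of all protein-coding genes, in both lists for 71.3% and in neither for 23.2%. In bulk chromatin, fewer cells with an open site and less opening per cell cannot be told apart.

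Peaks in the cluster were low and mostly away from the gene starts. The median summit pileup was 14 in No gRNA and 11 in All gRNA, against 20 and 14 on chromosome 11. Peaks were not few, since windows of equal length tiled over chromosome 11 held a median of 12 in either list. The highest peak of the No gRNA list lay in an intron of MMP20, the highest peaks of the All gRNA list lay there and at the start of the antisense transcribed pseudogene WTAPP1, and only MMP7 and MMP10 had their main start base inside a peak in either list. All gRNA peaks covered 6127 bp of the window and No gRNA peaks 8053 bp, or 76.1% as much in All gRNA, against 91.7% on chromosome 11 and 92.4% on chromosomes 1 to 22 and X. In the tiled windows (201 with at least 5 No gRNA peaks) the median was 92.2% with an interquartile range of 82.1 to 102, so the cluster lay below the lower quartile. Covered lengths were not corrected for depth. The tiled windows were not matched to the low peaks of the cluster, so the gap cannot be assigned to the cluster itself.

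**Figure D1:**
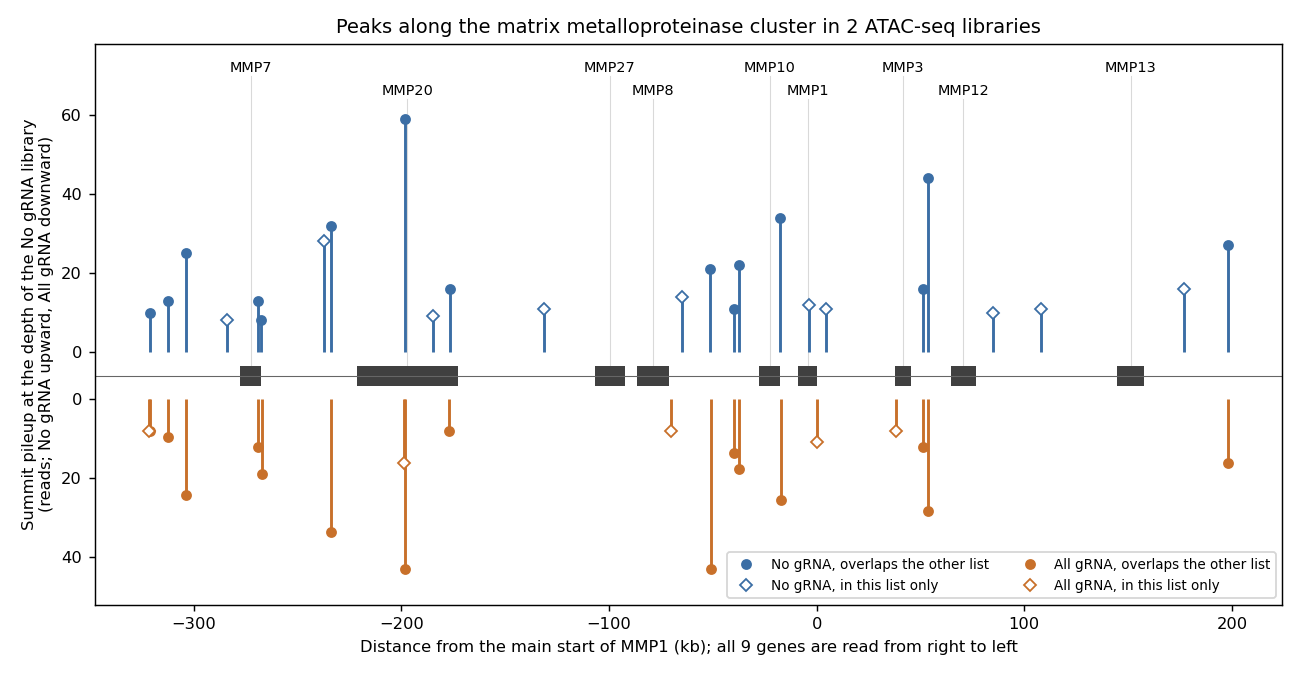
Summit pileups (read ends, All gRNA divided by 0.743 to bring it to the No gRNA depth) of the 25 No gRNA peaks (upward) and 20 All gRNA peaks (downward) against distance from the main start of MMP1 in kb; dark blocks are the 9 genes and open diamonds are peaks in 1 list only. The MMP20 intron peak stands highest at 59 in No gRNA, and no diamond or dot falls inside MMP27, MMP8, MMP10, MMP12 or MMP13.

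The sequences below show what lay under the peaks on which the account turns. First come the 250 bases before the starts of MMP7 (chr11:102530748-102530997) and MMP10 (chr11:102780629-102780878), the members with an open start in both libraries, from RefSeq (GRCh38.p14, minus strand). The RefSeq promoter table held 5 of the 9 members, namely MMP7, MMP20, MMP27, MMP8 and MMP10. Capitals mark TGAGTCA, the AP-1 site, on either strand.
MMP7 promoter: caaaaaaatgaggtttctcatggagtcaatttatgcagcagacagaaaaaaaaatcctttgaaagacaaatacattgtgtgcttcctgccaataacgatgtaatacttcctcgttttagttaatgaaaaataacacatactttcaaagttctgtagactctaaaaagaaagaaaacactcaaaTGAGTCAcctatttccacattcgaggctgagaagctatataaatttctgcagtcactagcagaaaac
MMP10 promoter: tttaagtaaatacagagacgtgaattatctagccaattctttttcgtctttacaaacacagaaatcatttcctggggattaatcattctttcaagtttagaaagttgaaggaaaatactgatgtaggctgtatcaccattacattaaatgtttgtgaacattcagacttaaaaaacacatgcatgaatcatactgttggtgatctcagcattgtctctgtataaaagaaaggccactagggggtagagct

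The AP-1 site of the MMP7 promoter spanned 67 to 61 bases before the start, inside the MMP7 peak of both lists. It was found in 1 of the 5 member promoters searched, that of MMP7, and in 4.20% of 35116 RefSeq promoters. The promoters of MMP1, MMP3, MMP12 and MMP13 were not in that set and were not searched, so the count does not speak for them. CAGGTG, the E-box that ZEB1 binds, was in 0 of 5 on either strand, against 17.5% of all promoters. The ETS core AGGAAG was in 1 of 5, again MMP7, against 28.7%.

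Next come 201 bases of hg38, plus strand, centred on No gRNA summits. They are the 4 distal summits of highest pileup. The distal summits lie upstream of MMP7 (chr11:102560702-102560902 and chr11:102564302-102564502), in the MMP20 intron (chr11:102599800-102600000) and between MMP3 and MMP12 (chr11:102851565-102851765). Capitals mark TGAGTCA and CAGGTG on either strand, so that the AP-1 site on the minus strand reads TGACTCA here.
Upstream of MMP7, No gRNA list only: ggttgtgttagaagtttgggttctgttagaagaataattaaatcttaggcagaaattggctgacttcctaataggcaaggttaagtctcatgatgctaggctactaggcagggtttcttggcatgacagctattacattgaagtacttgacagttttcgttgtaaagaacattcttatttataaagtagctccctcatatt
Upstream of MMP7, both lists: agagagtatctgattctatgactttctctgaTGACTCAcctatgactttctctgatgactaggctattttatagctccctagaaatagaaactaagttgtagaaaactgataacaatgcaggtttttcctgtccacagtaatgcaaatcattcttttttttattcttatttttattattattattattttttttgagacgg
MMP20 intron: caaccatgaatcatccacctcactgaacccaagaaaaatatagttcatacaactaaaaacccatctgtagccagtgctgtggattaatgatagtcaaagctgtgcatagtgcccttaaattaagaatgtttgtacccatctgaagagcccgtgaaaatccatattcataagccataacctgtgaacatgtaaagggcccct
Between MMP3 and MMP12: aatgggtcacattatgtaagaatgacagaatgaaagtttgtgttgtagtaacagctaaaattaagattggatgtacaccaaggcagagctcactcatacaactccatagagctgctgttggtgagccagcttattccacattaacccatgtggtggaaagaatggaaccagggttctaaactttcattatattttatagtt

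The AP-1 site lay 66 bases before the shared summit upstream of MMP7. Neither the AP-1 site nor the E-box was within 100 bp of the No gRNA summits in the MMP20 intron, between MMP3 and MMP12, or at the peak upstream of MMP7 that was in the No gRNA list only. Over the whole window the AP-1 site was within 100 bp of 6 of 25 No gRNA summits (24.0%) and of 6 of 20 All gRNA summits (30.0%), against 23.5% and 24.3% over all peaks of chromosomes 1 to 22 and X, which lie inside the exact 95% intervals (9.36 to 45.1 and 11.9 to 54.3). Searched over the whole peak instead, it was in 40.0% of No gRNA peaks (21.1 to 61.3) and 60.0% of All gRNA peaks (36.1 to 80.9), against 32.5% over all peaks of each list, so that the All gRNA interval then excludes the share over all peaks. Within 50 bp of the summits the shares went the other way. They were 0% in No gRNA (0 to 13.7) and 5.00% in All gRNA (0.127 to 24.9), against 11.2% and 11.5%. The order thus depends on the stretch searched. The E-box was near 5 of 25 No gRNA summits (20%, exact 95% interval 6.83 to 40.7) and 4 of 20 All gRNA summits (20%, 5.73 to 43.7), with 11.6% and 13.1% over all peaks inside both intervals. Among the No gRNA peaks it was near 2 of the 10 without an All gRNA partner and 3 of the 15 with one. AGGAAG was near 5 of 25 (20%) and 5 of 20 (25.0%), against 23.2% and 23.4%. The 201 bases at the summits were poorer in G and C than elsewhere, with medians of 39.3% (No gRNA) and 38.3% (All gRNA) against 48.3% and 47.8% over all peaks.

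The collagenases MMP1, MMP8 and MMP13 cut fibrillar collagen. MMP1, the interstitial collagenase (chr11:102789401-102798160), had 1 peak near its start in each list, but not the same one. In No gRNA the peak was in an intron of MMP1, 3.45 kb downstream of the main start (chr11:102794590-102794816, 227 bp), with a summit pileup of 12 and a fold of 7.87 over local background. In All gRNA it was in the promoter, with the summit 189 bp upstream of the start (chr11:102798187-102798452, 266 bp), a pileup of 8 and a fold of 6.06. A further No gRNA peak with no All gRNA partner lay 4.46 kb upstream of MMP1 (chr11:102802486-102802794, 309 bp, pileup 11). So MMP1 had a summit within 1000 bp of its main start in All gRNA and none in No gRNA, with few reads behind each call.

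MMP8, the neutrophil collagenase (chr11:102711796-102727050), had no peak in its body in either list. Upstream of it each list held a peak that the other lacked, in All gRNA at 3.27 kb from the main start (chr11:102728063-102728262, 200 bp, pileup 6) and in No gRNA at 8.56 kb (chr11:102733420-102733694, 275 bp, pileup 14). MMP13, the collagenase of cartilage and bone (chr11:102942995-102955732), also had an empty body in both lists. Its nearest No gRNA peak stood 19.5 kb upstream (chr11:102975046-102975284, 239 bp, pileup 16, fold 10.3) and had no All gRNA partner. In All gRNA the nearest was 40.8 kb upstream (chr11:102996355-102996646, 292 bp, pileup 12). That one was shared with a No gRNA peak of pileup 27, with a depth-scaled ratio of 0.598 (0.276 to 1.22).

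The stromelysins MMP3 and MMP10 cut proteoglycans, laminin and other matrix proteins and activate precursors of other members. MMP10 (chr11:102770502-102780628) had the highest promoter peak of the cluster in both lists. Its summit lay 112 bp upstream of the start in No gRNA (chr11:102780571-102780913, 343 bp, pileup 34, fold 17.5) and 188 bp upstream in All gRNA (chr11:102780590-102780988, 399 bp, pileup 19, fold 11.4). The All gRNA peak was 56 bp wider, and its depth-scaled height was 0.752 times that of No gRNA with an interval of 0.405 to 1.36, so a difference in height was not detectable at this depth.

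MMP3 (chr11:102835801-102843609) had no peak within 1000 bp of its main start in either list. A weak All gRNA peak, in an MMP3 intron that is also a WTAPP1 exon, lay 7.07 kb downstream of the start (chr11:102836490-102836689, 200 bp, pileup 6) and had no No gRNA partner. Between MMP3 and MMP12 stood a pair of peaks found in both lists. The one 8.06 kb upstream of MMP3 was the second highest of the window in No gRNA (chr11:102851437-102851847, 411 bp, pileup 44) and had a pileup of 21 in All gRNA (chr11:102851414-102851827, 414 bp). Its depth-scaled ratio was 0.642 (0.363 to 1.10). Its neighbour 5.99 kb upstream of MMP3 had pileups of 16 and 9 and a ratio of 0.757 (0.295 to 1.82). The local background at the higher peak counts the read ends of the 10 kb around its summit, those of both peaks included. It was 98 for No gRNA against 46 for All gRNA, which gave a ratio of 0.632 after depth scaling (0.435 to 0.905, or 0.367 to 1.06 with both counts halved for paired ends).

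MMP7, matrilysin (chr11:102520508-102530750), a small protease of glandular epithelium without the hemopexin domain of the other members, was the other gene with an open start. At the promoter the No gRNA peak was 200 bp wide with a pileup of 8 (chr11:102530681-102530880, fold 4.74), and the All gRNA peak was 336 bp wide with a pileup of 14 (chr11:102530683-102531018, fold 8.72). The depth-scaled ratio was 2.35, the highest of the window, but its interval of 0.922 to 6.48 included 1. An intron peak of MMP7 had pileups of 13 and 9 and a ratio of 0.932 (0.351 to 2.36).

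Upstream of MMP7 lay a pair of distal peaks of which 1 was found in No gRNA only. The shared one, 33.7 kb upstream (No gRNA chr11:102564250-102564586, 337 bp; All gRNA 295 bp), had pileups of 32 and 25 and a depth-scaled ratio of 1.05 (0.597 to 1.83). The other, 30.1 kb upstream (chr11:102560608-102561040, 433 bp), had a No gRNA pileup of 28, a fold of 10.6 and a −log10 q of 21.9, and no All gRNA peak overlapped it. Scaled to the All gRNA depth its pileup was 20.8 (lower bound 13.8), where 6 would have reached the weakest call of that list. Of the 867 No gRNA peaks with a pileup of exactly 28 on chromosomes 1 to 22 and X, 9.34% had no All gRNA partner. The read ends in the 10 kb around the shared neighbour, a stretch that takes in the sites of both peaks, numbered 88 and 43. Their depth-scaled ratio was 0.658 (0.446 to 0.957, or 0.373 to 1.13 with counts halved).

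MMP12, the macrophage metalloelastase (chr11:102862736-102874982), had no peak in its body or promoter in either list. The closest No gRNA peak, 7.95 kb upstream (chr11:102882838-102883044, 207 bp, pileup 10), had no All gRNA partner, and neither did the next one at 31.2 kb (chr11:102906050-102906261, 212 bp, pileup 11). The stretch of 68.0 kb between MMP12 and MMP13 thus held 2 peaks in No gRNA and 0 in All gRNA.

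MMP20, enamelysin of the developing tooth (chr11:102576832-102625332), is the longest member and held 3 peak summits in each list. The intron peak 25.4 kb downstream of its start was the highest of the window in No gRNA (chr11:102599727-102600432, 706 bp, pileup 59, fold 17.2) and shared that place in All gRNA (chr11:102599695-102600213, 519 bp, pileup 32, fold 11.8). The All gRNA peak was narrower, and the depth-scaled ratio was 0.730 (0.459 to 1.14). The All gRNA summit lay 26 bp from the No gRNA summit, and the 100 bp either side of it reached a CAGGTG that the No gRNA window did not. An All gRNA peak with no No gRNA partner lay beside it (chr11:102599373-102599572, 200 bp, pileup 12), within 1000 bp of the No gRNA peak. A No gRNA peak with no All gRNA partner lay 12.1 kb downstream of the start (chr11:102613054-102613331, 278 bp, pileup 9). The third MMP20 peak had pileups of 16 and 6 and a ratio of 0.505 (0.162 to 1.36), the lowest of the window.

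MMP27 (chr11:102691487-102705769), a member of which little is known, had no peak in its body or promoter in either list, and its nearest peaks were over 20 kb away. Between MMP20 and MMP27 the No gRNA list held 1 peak in an intron of the lncRNA ENSG00000281655 (chr11:102666484-102666755, 272 bp, pileup 11), and the All gRNA list held 0. In the flank beyond MMP7 a No gRNA peak 16.6 kb downstream of the MMP7 start (chr11:102513993-102514192, 200 bp, pileup 8) and an All gRNA peak at 54.3 kb (chr11:102476304-102476503, 200 bp, pileup 6) had no partner. The latter was within 1000 bp of a No gRNA peak.

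WTAPP1 (chr11:102746968-102836766, plus strand), a transcribed processed pseudogene antisense to MMP10 and MMP1 and reaching into MMP3, had a peak at its start in both lists. It was the one peak of the window that was higher in All gRNA than the limits set, a ratio beyond 2 with an interval that excludes 1. The No gRNA peak (chr11:102746915-102747548, 634 bp) had a pileup of 21 and the All gRNA peak (chr11:102746876-102747564, 689 bp) a pileup of 32, a depth-scaled ratio of 2.05 (1.15 to 3.74). With both counts halved the interval was 0.885 to 4.97 and included 1. The read ends in the 10 kb around the summit, which include those of the peak itself, numbered 74 in All gRNA against 54 in No gRNA. Their depth-scaled ratio of 1.84 (1.28 to 2.67, or 1.09 to 3.15 halved) is thus not a separate measure. Calls of this kind were made upward for 2.44% and downward for 3.27% of 48041 shared peaks on chromosomes 1 to 22 and X, and for 1 and 0 of 15 in the cluster.

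**Figure D2:**
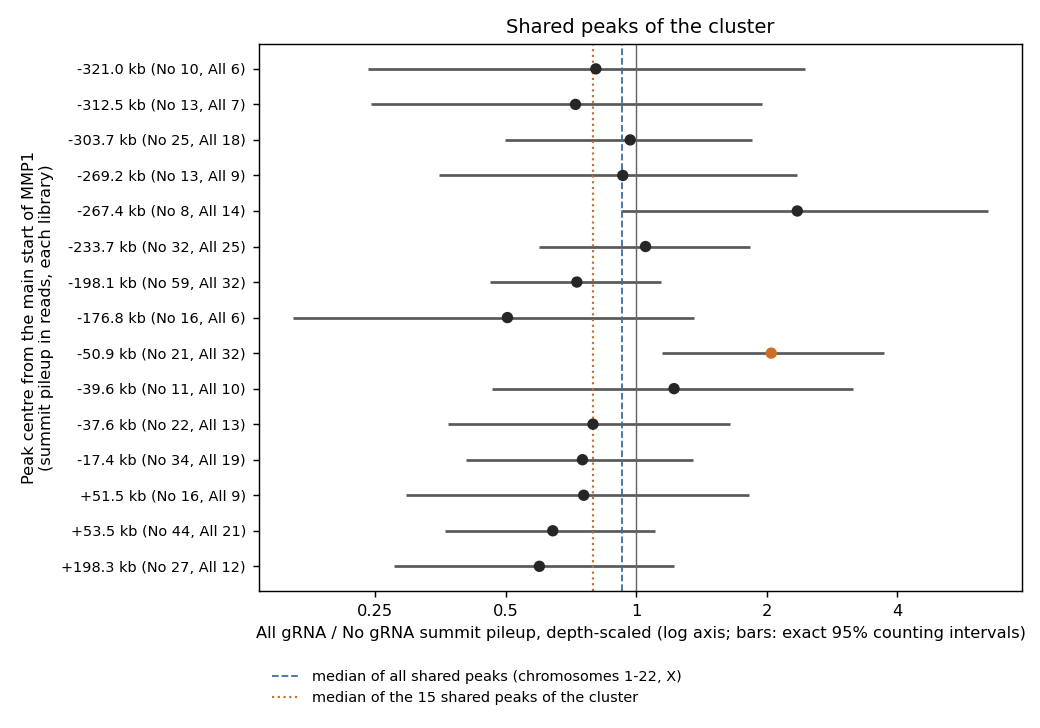
Depth-scaled All gRNA / No gRNA ratio of summit pileup (log axis) for the 15 shared peaks of the cluster, with exact 95% counting intervals and the pileups of each library; the peaks are named by the distance of their centre from the main start of MMP1. The interval of the WTAPP1 start (orange, ratio 2.05) excludes 1, and the other 14 include it.

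Across the 15 shared peaks, as over all shared peaks, the All gRNA heights were lower more often than higher. Of the 15, 0 had a ratio with an interval wholly below 1, against 8.85% of all shared peaks. No interval was computed for the share of peaks below 1 that follows. After depth scaling 11 of 15 were below 1 (73.3%), against 58.1% of all shared peaks, and the median ratio was 0.795 (log2 −0.33), against a median log2 ratio of −0.12 on chromosome 11 and −0.11 on chromosomes 1 to 22 and X. Scaled by the median of all shared peaks instead, no peak of the cluster was called lower either, and 2 of the 11, the MMP7 intron peak (1.00) and the peak 36.3 kb downstream of the MMP7 start (1.04), were no longer below 1. In width, 9 of 15 shared peaks were narrower in All gRNA (60.0%, against 60.7% of all shared peaks), and the median difference was −42 bp against −23 bp.

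No gRNA had 10 of 25 peaks without an All gRNA partner (40.0%, exact 95% interval 21.1 to 61.3), beside a background of 24.7% over all No gRNA peaks. All gRNA had 5 of 20 without a No gRNA partner (25.0%, 8.66 to 49.1), beside a background of 23.8%. Both intervals included their background, so the excess in No gRNA was within counting error. These peaks were lower than the shared ones, with a median pileup of 11 against 21 in No gRNA and of 6 against 13 in All gRNA. Height and sharing go together over all peaks: of No gRNA peaks with a pileup of 11, 47.2% had no partner, and of All gRNA peaks with a pileup of 6, 66.5% had none.

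Set against the weakest call of the other list at the same background, the 10 No gRNA peaks would have had scaled pileups of 5.94 to 20.8 where 4 to 6 sufficed, with lower bounds above that limit in 7. The 5 All gRNA peaks would have had 8.07 to 16.1 where 5 to 9 sufficed, with lower bounds above it in 0. The limits leave out the least width of 200 bp that a called peak had. Of the 15, the peak 30.1 kb upstream of MMP7 was thus the farthest above its limit, and at the MMP1 promoter a count in No gRNA just under the limit was within counting error. All 15 were picked because their own list called them, which favours high counts there. The comparison therefore cannot show that the other library should have called them. For No gRNA peaks with a pileup of 11 the lower bound was 4.08 against a limit of 4.

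**Figure D3:**
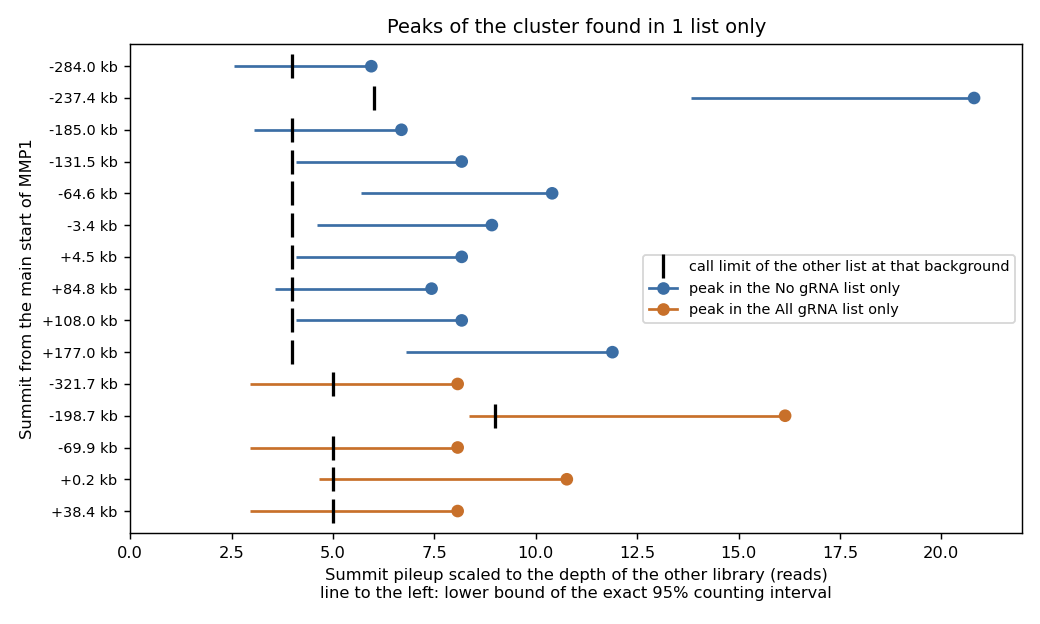
Summit pileups of the 10 No gRNA (blue) and 5 All gRNA (orange) peaks without a partner, scaled to the other library's depth (read ends), with a line down to the lower 95% counting bound and a black mark at the pileup of the other list's weakest call at that background. The blue peak at 20.8 stands well right of its mark at 6, and the 5 orange lines all cross theirs.

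By position, the 295 kb between the genes held 14 No gRNA and 10 All gRNA peaks, of which 6 and 2 had no partner. The gene bodies, 140 kb in all, held 5 in each list, of which 2 and 2 had no partner, and the flanks 6 and 5. So the lower number of peaks in All gRNA came from the gaps and flanks. The local background at the peaks was at the lowest value of the library for 40.0% of the window's peaks in both libraries, against 22.2% of all No gRNA and 24.4% of all All gRNA peaks.

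Counted over promoters, the order of the libraries depended on the distance from the start. Within 4000 bp of any annotated start, MMP7, MMP20, MMP10 and MMP1 had a peak in both lists, MMP8 and MMP3 in All gRNA only, and MMP27, MMP12 and MMP13 in neither. Promoter peaks in All gRNA only were found for 2.56% of all protein-coding genes and in No gRNA only for 2.92%. A promoter peak in both lists was found for 71.3% of all protein-coding genes, and in neither for 23.2%. Of the members, 5 had more covered promoter length in All gRNA, 1 had less and 3 had the same, with a median difference of +39 bp. Over all protein-coding genes it was longer for 4865, shorter for 10420 and equal for 4685, with a median of −11 bp. The gains were 45 bp at MMP7, 56 bp at MMP10, 39 bp at MMP1 and 200 bp each at MMP8 and MMP3, and at MMP20 the length fell by 58 bp. The MMP1 value sets an intron peak of No gRNA against a different promoter peak of All gRNA, so it is not a gain at 1 site. For MMP8 and MMP3 the gain was 1 peak each with a pileup of 6. The MMP3 peak lay within 4000 bp of an alternative start but not within 1000 bp of any start. With the main start alone MMP3 had none in either list. Within 1000 bp of any start 3 members had a peak in each list. In No gRNA 1 of the 3 was MMP1, whose intron peak lay by an alternative start. Summits within 1000 bp of the main start were found for 2 members in No gRNA and 3 in All gRNA. Within 10000 bp of any start 7 members had a peak in the No gRNA list against 6 in the All gRNA list, where No gRNA covered more (3846 bp against 3329 bp).

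Of 14 matrix metalloproteinase genes elsewhere in the genome, 7 had a promoter peak in both lists, 1 in No gRNA only and 6 in neither, and All gRNA covered more bases at 1 of them and fewer at 7. The 1 in No gRNA only was MMP11, a stromelysin (751 bp, pileup 28), and the longest covered was MMP2, gelatinase A, with 1330 bp (No gRNA) and 1174 bp (All gRNA). Of 5 inhibitors of these proteases (TIMP1 to TIMP4 and RECK), 4 had a promoter peak in both lists and 1 in neither, with more covered length in All gRNA at 1 and less at 3. The longest was TIMP2 in No gRNA (456 bp, and 226 bp in All gRNA) and TIMP1 in All gRNA (752 bp, and 431 bp in No gRNA).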

How the data were processed

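ATAC-seq was done on 2 SUM159 libraries, 1 per group. The authors used fastp for trimming, bowtie2 for mapping to hg38, samtools for the removal of duplicates, and MACS2 (extension 150, shift −75) for peaks of each library on its own, with no control. They also removed reads on the mitochondrial genome and in regions excluded by ENCODE. Tool versions were not given in the sources used here. The deposited lists hold, per peak, positions, a score (not used), a ratio of the signal to its background (the fold), and both the p and the q as −log10 values.

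Pileup and local background were solved from fold = (pileup + 1) / (background + 1) and the Poisson p. Within a relative tolerance of 0.001, a whole pileup was found for 99.9973% of the peaks (No gRNA) and 99.9987% (All gRNA), and the solver was tested on simulated data. Library totals are not in the lists. The lowest backgrounds, 0.651816 and 0.484375, gave the depth ratio. Local backgrounds were whole multiples of 0.02, the step of 200 bp over 10000 bp, and not of the stated extension. Read-end counts in 10 kb rest on this step. Even multiples made up 76.3% and 79.3%.

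Peaks were shared at an overlap of at least 1 bp. Intervals are exact (Clopper-Pearson, 95%). Genes came from GENCODE 44, with main starts from canonical transcripts. Printed peaks were those within 1000 bp of a main start, those in 1 list only, those called, and the 5 highest per library. Members and lists were chosen with earlier results of these data known. Python 3.11.15 and numpy 2.4.6 were used. The promoter counts of 1 further gene list are not reported here.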

Additional observations from a re-analysis of the deposited data

How the results depend on the processing

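With 1 library per group no replicate could be left out. No paired analysis was possible because the groups compared had a single library apiece. Of 90 values under other settings, 71 stayed within 1.5 times or the counting interval and 19 moved. The 71 include ratios of single peaks under other depth scalings, which were too close to the main one to move a ratio 1.5 times. Without these ratios 41 stayed and 19 moved. The 1 called change in height did not turn direction, which these scalings could not have made it do. With −log10 q of at least 10 the window held 14 No gRNA and 8 All gRNA peaks covering 5221 and 3193 bp, and with at least 5 it held 12 All gRNA peaks. Peaks without a partner were 4 of 14 in No gRNA and 0 of 8 in All gRNA at 10. At 5 they were 10 of 24 in No gRNA and 1 of 12 in All gRNA (MMP1 promoter). The cutoff was set on the counted list only, and no share over all peaks was taken at these cutoffs. The median −log10 q over all peaks was 14.1 in No gRNA and 10.2 in All gRNA, so a fixed cutoff removes more of the All gRNA list. A gap of up to 1000 bp counted as shared left 3 in All gRNA. Counted from any start, members with a promoter peak numbered 4 in No gRNA and 6 in All gRNA at 4000 bp, 3 and 3 at 1000 bp, and 7 and 6 at 10000 bp. Covered promoter length was 1325 bp in No gRNA and 1807 bp in All gRNA at 4000 bp, 770 and 1001 bp at 1000 bp, and 3846 and 3329 bp at 10000 bp, so that the order of the libraries turns at that distance. The AP-1 share within 50 bp was 0% in No gRNA and 5.00% in All gRNA, against 11.2% and 11.5% over all peaks, and in the whole peak 40.0% and 60.0%, against 32.5% in both lists. With pileups halved, an alternative chosen after seeing the data, 0 peaks were called higher, since the WTAPP1 interval then includes 1. The thresholds and distances change the counts by construction, and other causes were not tested. Depth limits any call on the All gRNA promoter peaks of MMP1, MMP8 and MMP3, which rest on 6 to 8 read ends. The No gRNA peak counted for the MMP1 promoter had a pileup of 12.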
